A study of Mus musculus with 3 samples.

Results

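Natural killer (NK) cells are innate lymphocytes that kill infected or transformed cells without prior priming and secrete interferon gamma and chemokines. Here they were selected on 7 genes that NK cells are known to express, namely Ncr1, Klrb1c, Gzma, Klre1, Klra8, Xcl1 and Klrd1. UMIs (unique molecular identifiers) each stand for 1 captured mRNA. Among cells with 500 or more genes and no more than 10% of UMIs from mitochondrial transcripts, a cell was chosen when these 7 genes made up at least 0.2% of its UMIs and 4 neutrophil genes (S100a8, S100a9, Camp and Ngp) made up less than 1%. The rule took 129 of 2144 kept cells (6.02%, exact 95% binomial interval 5.05 to 7.11).

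The study sorted Cd11b-positive cells from whole brain without cerebellum of female C57BL6J mice aged 5 months and sequenced single cells with the droplet-based 10x Genomics 3′ v2 kit. The control group (Ctrl) was 1 untreated animal. The D0 group was a pool of 2 animals fed PLX5622, an inhibitor of the Csf1 receptor on which microglia depend, at 1200 mg/kg in the diet for 14 days. The D2 group was 1 animal that received the same diet for 14 days and was returned to control diet for 2 days. The labels mention 4 samples in the preparation, and the 3 above are covered here.

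All cells came in 1 matrix, in which the ending of each cell's barcode separates 3 libraries, called library 1, 2 and 3 below. No label ties an ending to a treatment, so no treatment comparison was made. Each group was 1 library, so no test between libraries was possible. Intervals are exact 95% intervals (Poisson for sums of UMIs, Clopper-Pearson for shares) and cover counting error only. They leave out the differences between animals and, for sums of UMIs, the spread between cells. No barcode sequence was shared between libraries (0 shared).

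NK cells recognise targets through a balance of inhibitory and activating receptors, many of them lectin-like proteins encoded side by side in the NK gene complex, and kill by releasing perforin and granzymes. Maturing mouse NK cells lose CD27 and gain surface CD11b, the integrin used for the sort here. Type 1 innate lymphoid cells are close relatives that stay in tissues and share many of the same receptors.

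The 129 cells were spread unevenly over the libraries. Library 1 held 13 among 1263 kept cells (1.03%, 0.549 to 1.75). Library 2 held 83 among 595 (13.9%, 11.3 to 17.0), and library 3 held 33 among 286 (11.5%, 8.08 to 15.8). The interval of library 1 lay below those of libraries 2 and 3, which overlapped. NK cells were of similar size in the 3 libraries, with medians of 3409, 3189 and 3002 UMIs, whereas the other kept cells had medians of 3670.5, 6813 and 8763 UMIs. NK cells therefore gave 0.743%, 7.08% and 3.91% of the UMIs of libraries 1, 2 and 3. A share is set by all cell types at once, and fewer microglia and more NK cells cannot be told apart in it.

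**Figure D1:**
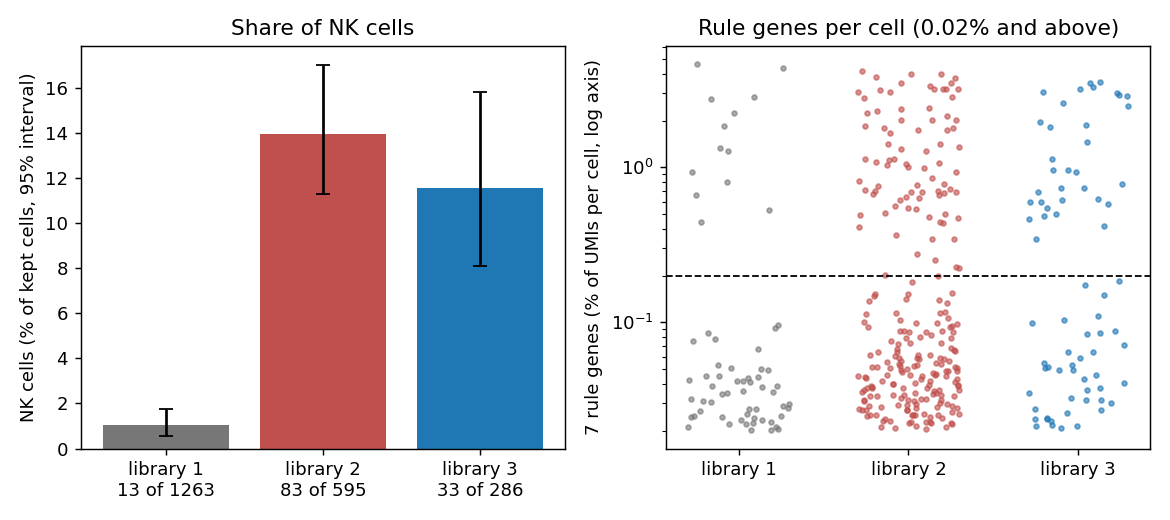
Left, bars give NK cells as a percentage of kept cells in each library, with exact 95% binomial intervals. Right, each point is 1 cell, placed by the percentage of its UMIs from the 7 rule genes on a log axis, with cells under 0.02% not drawn and the dashed line at the threshold of 0.2%. Library 1 holds 1.03% and libraries 2 and 3 hold 13.9% and 11.5%. Between 0.1% and the line lie 21 cells, 16 in library 2 and 5 in library 3.

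Most members carried several of the 7 genes: 115 of 129 had UMIs of at least 4, with a median of 5 genes and of 1.05% of UMIs (range 0.203% to 4.63%). The 3 members nearest to the threshold, at 0.203%, 0.222% and 0.227%, were all in library 2 and had Klrd1 as their sole rule gene (13, 17 and 9 UMIs). They held 0 UMIs of Nkg7, Il2rb and Gzmb, and in 2 of them 9.20% and 7.80% of UMIs came from Cd74, H2-Aa, H2-Ab1 and H2-Eb1, genes of MHC class II antigen presentation (0.530% in the third). The nearest cells just outside the threshold, at 0.198%, 0.186%, 0.183% and 0.173%, were of the same kind, with 7.68% to 12.0% of UMIs from these 4 genes and 0 Nkg7 UMIs. Klrd1 was thus not restricted to NK cells, with 1190 UMIs in the other kept cells. A further 2 members, both in library 1, carried 1.40% and 1.64% of their UMIs from microglia markers, where no other member exceeded 0.0779%. Results that rest on these 5 cells are given with and without them. Without them 124 NK cells remained, at 0.871% of library 1 and 13.4% of library 2, and library 3 lost none.

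Genes outside the rule were set against the NK label. The marker lists held none for type 1 innate lymphoid cells, which share many of the receptors. A list of type 1 innate lymphoid and tissue residency genes is described further below. Some of its genes, such as Cxcr6 and Tmem176b, had UMIs in a part of the members. The label therefore does not set type 1 innate lymphoid cells apart from NK cells. Nkg7, which encodes a membrane protein of cytotoxic granules, had 4449, 4123 and 4502 CPM (UMIs of the gene scaled to a sum of 1000000 UMIs) in NK cells of libraries 1, 2 and 3, against 5.15 CPM in the other kept cells. Of the T cell markers, Cd3e, Cd4, Cd8a, Cd8b1, Cd5 and Cd6 were at 0 UMIs, Cd3d had 2 and Cd28 had 11. Cd3g, a subunit of the T cell receptor complex, went the other way, with 138 UMIs in 23 NK cells and 5 in all other kept cells. The 9 T cell markers with rows summed to 588, 391 and 108 CPM in libraries 1, 2 and 3, most of it Cd3g, against 5.78 CPM in the other kept cells (871 and 417 CPM in libraries 1 and 2 without the 5 cells named above). The constant genes of the T cell receptor have no rows in the matrix and were not analysed here. Of the B cell markers, Cd79a, Ms4a1 and Pax5 were at 0, and the list summed to 0, 3.52 and 9.04 CPM in libraries 1, 2 and 3. All 6 markers of border-associated macrophages were at 0. The 8 markers of type 2 and 3 innate lymphoid cells and basophils summed to 42.0, 70.4 and 72.3 CPM, with Il1rl1, Il17rb, Fcer1a and Gata2 at 0. The other kept cells had 43.5 CPM. Gata3 made up most of the sums of libraries 2 and 3, at 66.9 and 72.3 CPM. The 9 non-immune markers summed to 54.2 to 63.0 CPM with 7 at 0, and the 8 neutrophil markers to 42.0, 499.9 and 289 CPM, with Mmp8 and Cxcr2 at 0. The 8 monocyte markers summed to 651, 873 and 515 CPM in libraries 1, 2 and 3, with Fn1 and F13a1 at 0, against 6669 CPM in the other kept cells.

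The sums of the microglia and dendritic cell lists rested largely on the 5 cells named above. The 10 microglia markers summed to 5078, 183 and 163 CPM in NK cells of libraries 1, 2 and 3, and to 342 CPM in library 1 without its 2 cells. The 8 dendritic cell markers summed to 42.0, 4337 and 262 CPM, and to 647 CPM in library 2 without its 3 cells. Itgam, which encodes CD11b itself, had 27 UMIs in 22 NK cells and stood at 105, 59.8 and 45.2 CPM in libraries 1, 2 and 3. Over all NK cells it was at 61.0 CPM, and at 56.3 CPM without the 5 cells. The library 1 value rests on few UMIs and in part on its 2 microglia-marker cells, so no difference between libraries is read from it. After each cell was thinned to 2000 UMIs, 12.4% (6.94 to 19.9) of NK cells had an Itgam UMI, against 34.6% of microglia and 28.8% of neutrophils (17.1% of NK cells unthinned).

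The 7 rule genes chose the cells, so their levels are a description. Ncr1, which encodes the activating receptor NKp46, was at 986, 831 and 849.9 CPM in libraries 1, 2 and 3. Klrb1c, which encodes the NK1.1 antigen of C57BL/6 mice, was at 1133, 898 and 913 CPM. Klrd1, which encodes CD94, the partner chain of the NKG2 receptors, was at 1847, 1429 and 1456 CPM. For these receptors, and for the lectin-like receptor Klre1 at 713, 679 and 877 CPM, the counting intervals of libraries 2 and 3 overlapped. Gzma, the granule protease granzyme A, was the most abundant rule gene at 9863 (8991 to 10796), 6840.4 (6539.6 to 7151) and 6853 (6374 to 7359) CPM, with library 1 above the intervals of libraries 2 and 3. Klra8, the activating receptor Ly49H that binds a cytomegalovirus protein, stood at 902 (653 to 1215) CPM in library 1, above 369.7 (302 to 447) and 335 (236 to 461) in libraries 2 and 3. Xcl1, a chemokine that attracts cross-presenting dendritic cells, ran the other way, at 1091 (815 to 1431), 2165 (1997 to 2343) and 2947 (2636 to 3285) CPM. The library 1 values rest on 13 cells, of which the 2 with microglia markers hold many of the UMIs (9674 and 5850 of 47653). Without those 2, Gzma was at 12792 CPM in library 1, Klra8 at 1245, Xcl1 at 1089 and Ncr1 at 1369 CPM. Klra8 then stood further above libraries 2 and 3, and Xcl1 stayed below them. Shares of thinned cells with a UMI had overlapping intervals over libraries 1, 2 and 3. Gzma was in 54.5% (23.4 to 83.3), 52.1% (39.9 to 64.1) and 38.7% (21.9 to 57.8). Klra8 was in 45.5% (16.7 to 76.6), 19.7% (11.2 to 30.9) and 25.8% (11.9 to 44.6), and Xcl1 in 72.7%, 71.8% and 77.4%.

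The rule makes its genes frequent in NK cells, and the shares below describe how evenly they were spread. After thinning to 2000 UMIs, which left 113 of the 129 NK cells, 92.04% (85.4 to 96.3) had a UMI of Klrd1, 75.2% (66.2 to 82.9) of Klrb1c, 73.5% (64.3 to 81.3) of Xcl1 and 67.3% (57.8 to 75.8) of Ncr1. Gzma was found in 48.7% (39.2 to 58.3) and Klra8 in 23.9% (16.4 to 32.8). The unthinned shares were 95.3%, 86.05%, 72.1%, 82.9%, 52.7% and 31.8%. Of 1240 microglia thinned to the same depth (median 3986 UMIs before thinning, 3334 in NK cells), 2.98% had a UMI of Klrd1, 0.403% of Gzma and 0.0806% of Ncr1. Most of these microglia (1117) were in library 1, and the 89 in library 2, where most NK cells were, had Klrd1 UMIs in 5.62% (1.85 to 12.6) and Gzma UMIs in 2.25% (0.273 to 7.88). Gzma was thus the most abundant rule gene but was found in a part of the NK cells, whereas Klrd1 was found in most of them.

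The stretch of 250 bases upstream of the start site is shown for Ncr1 and Gzma, as rule genes that define NK identity and killing, and for Cxcr6, the gene with the highest ratio to other cells outside the rule. The sequences are from RefSeq (GRCm38.p6), 5′ to 3′ on the gene's strand, at chr7:4337465-4337714 (plus strand), chr13:113100982-113101231 (minus strand) and chr9:123806227-123806476 (plus strand). Capitals mark matches to TGTGGT or its reverse complement ACCACA, the core bound by Runx factors.
Ncr1: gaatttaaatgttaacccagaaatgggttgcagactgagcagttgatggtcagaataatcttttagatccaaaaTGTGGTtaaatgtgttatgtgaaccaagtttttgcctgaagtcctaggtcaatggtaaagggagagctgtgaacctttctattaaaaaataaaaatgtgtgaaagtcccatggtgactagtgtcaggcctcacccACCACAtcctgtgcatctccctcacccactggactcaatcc
Gzma: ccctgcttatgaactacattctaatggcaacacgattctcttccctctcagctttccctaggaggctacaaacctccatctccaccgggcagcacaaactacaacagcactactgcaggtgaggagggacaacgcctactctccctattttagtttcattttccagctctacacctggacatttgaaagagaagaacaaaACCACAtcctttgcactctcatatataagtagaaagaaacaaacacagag
Cxcr6: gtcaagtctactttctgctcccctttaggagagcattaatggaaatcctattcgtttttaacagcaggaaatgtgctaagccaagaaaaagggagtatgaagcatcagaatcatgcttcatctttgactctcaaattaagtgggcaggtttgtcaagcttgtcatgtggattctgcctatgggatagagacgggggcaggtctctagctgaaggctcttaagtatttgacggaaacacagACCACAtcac
A Runx core stood in 14 of the 25 windows found among the 7 rule genes and the 25 other named genes (5 of 6 rule genes), and in 14.2% of 27025 gene windows of the same length. The T-box core GGTGTG or CACACC was in 4 of 25 (16.2% of all windows), and the Ets core GGAAGT or ACTTCC in 7 of 25 (19.99% of all windows). Both strands were searched for each. A match is a string of letters and not a bound site, and genes of 1 family share sequence.

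The 25 genes with the highest ratio of CPM in NK cells to that in other kept cells, outside the rule genes and with at least 100 UMIs in NK cells, were Cxcr6, Klra7, Klrc1, Ccl1, Klra4, Klra9, Gzmb, Il2rb, Skap1, Gimap3, Nkg7, Cd3g, Klrc2, Ctsw, Gzmc, Txk, Cma1, Gimap4, Gimap7, Lck, Ptprcap, Cd2, Cd7, Ms4a4b and Ctla2a. With the rule genes, 9 of these 32 were Klr genes of the NK gene complex, between positions 128778485 and 130233322 of chromosome 6 (mm10), and 3 were Gimap genes, which encode GTPases of lymphocyte survival. The rule used this contrast, so counts against other cells are descriptive and nothing is read from them. Of 9703 genes with at least 50 UMIs over all kept cells, 278 were at least 4-fold higher in NK cells (2.87%) and 1627 at least 4-fold lower (16.8%). The median log2 ratio over all 9703 was 0.04. The counts of each list against other cells below stand beside these shares.

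Lectin-like receptors outside the Ly49 family had a median log2 ratio of 5.64, with 10 of 11 tested genes at least 4-fold higher and 0 lower. Klrk1, which encodes the activating receptor NKG2D, was at 1175, 1091 and 985 CPM in NK cells of libraries 1, 2 and 3. Klrc1, the inhibitory NKG2A chain, was at 399, 440.1 and 316 CPM and 2592 (707 to 21569.6) times its level in other cells, where it had 2 UMIs. Klrc2, the NKG2C chain, was at 105, 261 and 226 CPM, and Klrb1b, an inhibitory receptor of the NKR-P1 family, at 105, 222 and 226 CPM. The counting intervals of the 3 libraries overlapped for Klrk1 and for Klrc1. Klrc1 and Klrc2 are close relatives, and 43.5% of the 50-base words in the last 500 bases of Klrc1 transcripts occur in another Klr gene (15.2% for Klrc2), so reads may have been split or lost between them.

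Ly49 receptors bind MHC class I, and individual NK cells express different combinations of them. Apart from Klra8, 7 of 10 Ly49 genes passed the UMI minimum, 5 were at least 4-fold higher and 1 lower, and their median log2 ratio was 9.21. Klra9 (Ly49I, inhibitory) led at 1489.9, 1447 and 949 CPM in libraries 1, 2 and 3, with UMIs in 66.4% (56.9 to 74.99) of thinned cells (72.1% unthinned). Klra4 (Ly49D, activating) was at 546, 525 and 371 CPM and was found in 21.2% (14.1 to 29.9) (25.6% unthinned). Klra7 (Ly49G, inhibitory) was at 357, 401 and 552 CPM and was found in 30.1% (21.8 to 39.4) (40.3% unthinned). Klra3 (Ly49C) had 86 UMIs, Klra1 (Ly49A) 71, Klra5 29, Klra17 4, Klra6 and Klra10 2 each and Klra2 1. In the last 500 bases, 49.4% of 50-base words of Klra9, 31.5% of Klra3 and 22.1% of Klra7 occur in another Klr gene, so the split between these genes is uncertain. It was 13.1% for Klra8 and 4.66% for Klra4.

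Immunoglobulin-family and SLAM receptors were mixed, with 4 of 11 tested genes at least 4-fold higher, 3 lower and a median log2 ratio of 0.55. Over all 9703 genes 2.87% were higher and 16.8% lower. Cd2, an adhesion receptor, was at 209.8, 292 and 298 CPM and Cd244, the SLAM-family receptor 2B4, at 189, 268 and 244 CPM in libraries 1, 2 and 3. Cd48, the ligand of 2B4, was at 419.7, 369.7 and 434 CPM. Fcgr3, the Fc receptor that mediates antibody-dependent killing, was at 441, 91.5 and 90.4 CPM (156 in library 1 without its 2 microglia-marker cells), below its level in the other kept cells (963 CPM), which are mostly myeloid.

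Signalling adaptors and kinases had a median log2 ratio of 2.08, with 7 of 14 tested genes at least 4-fold higher and 0 lower. Fcer1g and Tyrobp, the signal chains of activating receptors, were found in 100% and 100% of thinned NK cells, and Fcer1g stood at 4931, 3929 and 4475 CPM in libraries 1, 2 and 3. Microglia also carried both, in 99.03% and 99.8% of thinned cells. Hcst, the adaptor DAP10 that signals for NKG2D, was at 503.6, 732 and 759 CPM. The lymphocyte kinases Txk and Lck were at 525, 563 and 443 and at 609, 422 and 488 CPM, with 10 and 18 UMIs in all other kept cells together. Cd247, the zeta chain used by NKp46, and the adaptor Sh2d2a were at 0 UMIs in other cells and at least 357-fold and at least 579-fold higher in NK cells against a floor of 3 counts over the group.

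The granule list had a median log2 ratio of 3.41, with 9 of 13 tested genes at least 4-fold higher and 1 lower. Gzmb, the protease that triggers target cell apoptosis, was at 2875, 3341 and 3580.2 CPM in libraries 1, 2 and 3 and was found in 76.1% (67.2 to 83.6) of thinned cells (79.8% unthinned). Gzmc, granzyme C, was at 734 (512 to 1021), 2126 (1960.2 to 2303) and 2911 (2602 to 3247) CPM (1058 CPM in library 1 without its 2 microglia-marker cells). These 3 counting intervals did not overlap, but they leave out the spread between cells. In library 2, 1 cell held 120 of the 604 Gzmc UMIs. Gzmc was found in 39.8% (30.7 to 49.5) of thinned cells (38.8% unthinned). By library the thinned shares were 27.3% (6.02 to 61.0), 38.0% (26.8 to 50.3) and 48.4% (30.2 to 66.9), with overlapping intervals. Ctsw, the lymphocyte protease cathepsin W, was at 923, 1162 and 1501 CPM and Srgn, the proteoglycan that packs granules, at 588, 1116 and 1248 CPM. Prf1, the pore-forming perforin, was far lower at 126, 106 and 72.3 CPM, with UMIs in 19.5% (12.6 to 27.98) (24.8% unthinned). Gzmm and Gzmk had 4 UMIs and 1 UMI. Fasl, the death ligand, had 79 UMIs and 0 in other cells, at least 763-fold higher. Levels of different genes are in UMIs, which count transcript 3′ ends and need no length correction.

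Among 9 tested cytokines and chemokines, 5 were at least 4-fold higher and 1 lower in NK cells (median log2 ratio 2.94). Ccl5, a chemokine for T cells and monocytes, was the most abundant of the list at 11815, 12586 and 14267 CPM in libraries 1, 2 and 3, and was found in 96.5% (91.2 to 99.03) of thinned NK cells against 2.02% of microglia. By library, Ccl5 UMIs were in 0.895% of thinned microglia of library 1, 16.9% (9.75 to 26.3) of library 2 and 0 of 34 in library 3 (which allows up to 8.82%), and in 7 of 31 thinned neutrophils of library 2. Unthinned microglia had them in 2.28%, 46.3% and 29.4% of cells of libraries 1, 2 and 3. NK cells of library 2 had them in 95.8% (88.1 to 99.1; 98.8% unthinned), above both. Ccl4 and Ccl3, chemokines that microglia also make, were at 1511, 2521 and 2169.8 and at 734, 546 and 389 CPM, and other kept cells had 2343 and 1339.8 CPM. Ifng, interferon gamma, had 84 UMIs in 30 NK cells and 0 in others, at least 811-fold higher, and stood at 147, 218 and 136 CPM. Tnf had 13 UMIs, Csf2 1, Flt3l 19 and Spp1 15, and Lta and Il10 were at 0. Ccl1, a chemokine for Ccr8-bearing cells, was named by its ratio, but its 308 UMIs lay in 4 cells, with 227, 69, 9 and 3 UMIs. The cell with 227 Ccl1 UMIs (5.15% of its total) also held 120 of Gzmc and 48 of Xcl1, and that with 69 held 45 of Gzmc and 94 of Xcl1.

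Of 10 tested cytokine receptors 3 were at least 4-fold higher and 1 lower, and the list's median log2 ratio was -0.02. Il2rb, the chain that binds interleukin 2 and 15, was at 546, 539 and 615 CPM in libraries 1, 2 and 3 and was found in 68.1% (58.7 to 76.6) of thinned cells (76.7% unthinned). Il2rg, the common gamma chain, was at 378, 303 and 235 CPM and Ifngr1 at 755, 725 and 506 CPM. Il7r, which marks helper-type innate lymphoid cells, had 5 UMIs in all NK cells.

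Transcription factors of the NK lineage had a median log2 ratio of 1.01, with 6 of 13 tested at least 4-fold higher and 0 lower. Id2, which is required for innate lymphoid cells, was at 1826, 1588 and 2043 CPM in libraries 1, 2 and 3. Eomes and Tbx21, the T-box factors of NK maturation, had 37 and 41 UMIs and were found in 15.04% (9.01 to 22.99) and 19.5% (12.6 to 27.98) of thinned cells (19.4% and 27.1% unthinned). Runx3 had 85 UMIs, Ets1 64, Stat4 54, Gata3 28 and Tox 26. Zbtb16, a factor of innate lymphoid precursors and NKT cells, had 1 UMI. Irf8 and Klf2 were better detected, with 226 and 228 UMIs.

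**Figure D2:**
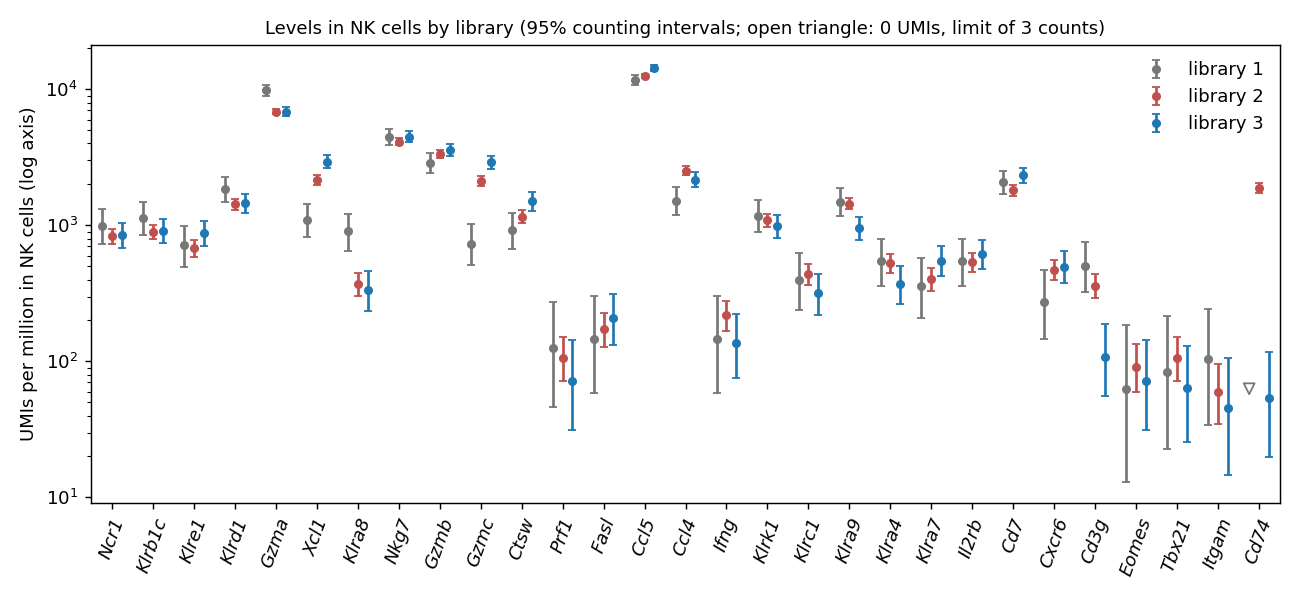
Points give CPM in NK cells of each library on a log axis, with exact 95% Poisson intervals for counting error, and open triangles give the limit of 3 counts where a library had 0 UMIs. The intervals of Ncr1, Klrb1c, Klrd1 and Klrk1 overlap over libraries, Gzma and Klra8 are higher in library 1, and Gzmc and Xcl1 are lowest in library 1 and highest in library 3. The Cd74 value of library 2 rests on 3 cells. The spread between cells is not in the intervals.

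Trafficking receptors and integrins had a median log2 ratio of 0.86, with 4 of 19 tested genes at least 4-fold higher and 4 lower (2.87% and 16.8% over all 9703 genes). Selplg, the ligand of P-selectin, was at 1238, 746 and 985 CPM in libraries 1, 2 and 3, and the integrin chains Itgb2, Itgb1 and Itgb7 at 462, 366 and 452, at 503.6, 268 and 362 and at 189, 268 and 262 CPM. Cxcr3, which guides lymphocytes to inflamed tissue, was at 126, 134 and 136 CPM. Early maturation genes (5 of 7 tested higher, 0 lower, median 3.46) and late ones (5 of 10 higher, 1 lower, median log2 ratio 1.498) were both present. From the early list Cd7 was at 2078, 1809.5 and 2342 CPM and Thy1 at 147, 218 and 253 CPM, and from the late list Cma1, a protease of mature NK cells, was at 168, 275 and 262 CPM and Spn (CD43) at 83.9, 144 and 127 CPM. Of the list of type 1 innate lymphoid and tissue residency genes 3 of 9 were higher and 1 lower (median 0.78), led by Cxcr6, a chemokine receptor of tissue-resident lymphocytes, at 273, 472 and 497 CPM.

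Gzma and Cxcr6 divided the NK cells. This division was chosen after the values were seen, and the levels of both genes in it follow from it. Gzma UMIs without Cxcr6 UMIs were found in 52 cells, 7, 33 and 12 of them in libraries 1, 2 and 3. Cxcr6 without Gzma was found in 44 cells (4, 26 and 14), both in 16 (1, 14 and 1), and neither in 14 (1, 7 and 6), with the 3 Klrd1-only cells apart. Gzma-only cells were 53.8% (25.1 to 80.8), 39.8% (29.2 to 51.1) and 36.4% (20.4 to 54.9) of the NK cells of libraries 1, 2 and 3, and their shares did not differ beyond counting error. Gzma-only cells held 7 to 163 Gzma UMIs (median 53), against 1 to 51 (median 8.5) in cells with both. Cxcr6 UMIs numbered 1 to 14 in Cxcr6-only cells (median 2, with 10 of 44 at 1), so a part of the cells without Cxcr6 UMIs may carry the mRNA undetected. Median depth was 2638.5 UMIs in Gzma-only and 3317 UMIs in Cxcr6-only cells.

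**Figure D3:**
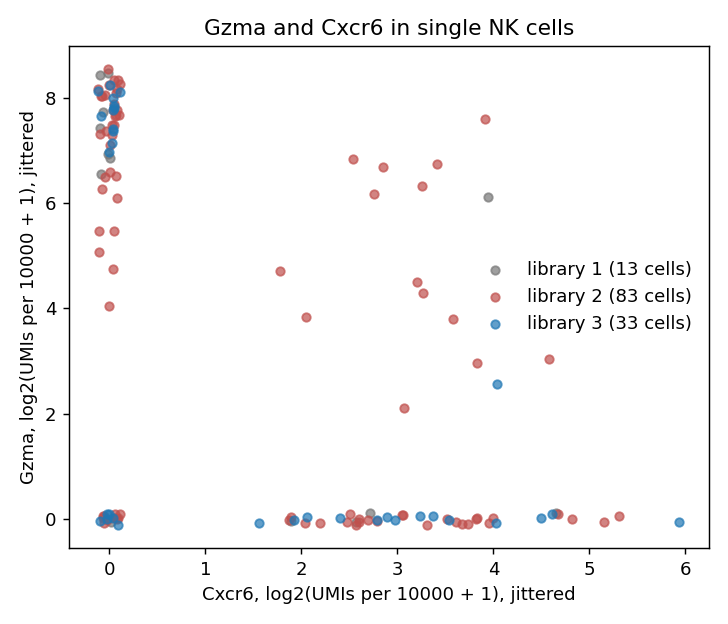
Each point is 1 NK cell, placed by Cxcr6 (horizontal) and Gzma (vertical) as log2 of scaled UMIs plus 1 (scale on the axis), with small jitter, and coloured by library. Most cells lie along 1 axis, 52 on Gzma alone and 44 on Cxcr6 alone, while 16 have both. The origin holds the 14 cells with neither and the 3 Klrd1-only cells.

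Of 830 genes with at least 50 UMIs over both sets, 13 were at least 4-fold higher in Gzma-only cells (1.57%) and 9 at least 4-fold lower (1.08%), each count including the gene that made the division. Among the higher ones were Gzma, Klra4, Cma1, Klrg1, Ccl1, Klf2, Klra8, Klra7, Irf8, Hist1h1c and Tsc22d3. The lower ones were Cxcr6, Tmem176b, Cd3g, S100a4, Cited4, Ltb, Inpp4b, Fgl2 and Serpina3g. The Ccl1 call rests on 1 cell. Cells without Gzma could be chosen only through the other 6 rule genes, so the levels of those 6 in this comparison depend in part on the rule. Without the 5 cells above, 11 of 817 genes were higher and 8 lower.

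Of the late maturation list, 2 of 4 tested genes were at least 4-fold higher in Gzma-only cells and 0 lower, with a median log2 ratio of 4.26, where all 830 genes had 0.01. The early maturation list went the other way (3 tested, 0 higher, 1 lower, median -1.84). Klf2, a factor that maintains lymphocyte recirculation, was at 1320.0 and 19.4 CPM in Gzma-only and Cxcr6-only cells, with 1427 against 30.6 CPM in library 2 and 1199.7 against 0 CPM in library 3. Klrg1, an inhibitory receptor of late NK maturation, was at 332 and 0 CPM, at least 17.1-fold higher against the floor of 3 counts, and Cma1 at 748 and 0 CPM (at least 38.6-fold higher). In libraries 2 and 3 taken singly, Klrg1 and Cma1 both had 0 UMIs in Cxcr6-only cells. Genes under the minimum of 50 UMIs lay the same way, with S1pr5, the receptor for exit from bone marrow and lymph node, at 202 and 0 CPM, Zeb2 at 260.1 and 0, Eomes at 208 and 6.46 and Prf1 at 221 and 25.9 CPM. Gzmb, a tested gene of the late list, leaned instead to the Cxcr6-only side, short of 4-fold (levels further below). Of 4 tested transcription factors 2 were higher, Klf2 and Irf8 (1059.9 and 162 CPM).

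Of the residency list 3 genes were tested and all 3 were at least 4-fold lower in Gzma-only cells (median log2 ratio -4.55). Cxcr6 is counted there, but it made the division and its call was fixed in advance. That leaves Tmem176b and Inpp4b. Tmem176b, a membrane protein of innate lymphoid and dendritic cells, was at 19.5 and 529.9 CPM in Gzma-only and Cxcr6-only cells, with 10.6 against 591 CPM in library 2 and 27.9 against 517 CPM in library 3. S100a4, a calcium-binding protein of motile cells, was at 149.6 and 1732 CPM, with 128 against 1721 CPM in library 2 and 195 against 1527 CPM in library 3. Ltb, the lymphotoxin beta subunit, was at 143 and 601 CPM and Inpp4b, a phosphatase gene of the residency list, at 65.03 and 278 CPM. Short of the 4-fold limit, Xcl1, a rule gene, was at 1021 and 3102 CPM, and outside the rule Cd7 was at 741 and 2656, Il2rb at 345 and 717 and Gzmc at 1398 and 2824 CPM. Cd160, an activating receptor, was at 19.5 and 219.7 CPM and Cxcr3 at 58.5 and 246 CPM, both under the UMI minimum.

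Among NK genes outside the rule, Klrk1 was at 1203 and 1267 CPM in Gzma-only and Cxcr6-only cells, a ratio of 0.95 (0.773 to 1.17). Fcer1g was at 3993 and 4291 CPM, with a ratio of 0.93 (0.832 to 1.04). Gzmb was at 2959 and 3832 CPM and Id2 at 1476 and 1952 CPM. The rule genes Klrd1, Ncr1 and Klrb1c were at 1327 and 1577, at 1190.0 and 769 and at 1242 and 704 CPM, and their presence in Cxcr6-only cells follows in part from the rule. Nkg7 and Ccl5 were higher in Gzma-only cells but short of 4-fold, at 6548 and 3134 CPM (ratio 2.09) and at 22486 and 8531 CPM (ratio 2.64). Tbx21 was at 137 and 96.9 CPM, a ratio of 1.41 (0.692 to 2.94). Of the lists of granule genes, adaptors and kinases, cytokine receptors, immunoglobulin-family receptors and MHC class I, none had a gene past 4-fold (0 of 10, 0 of 7, 0 of 3, 0 of 3 and 0 of 7 tested). Over all 830 genes 1.57% were higher and 1.08% lower, so these counts of 0 lie near the share over all genes.

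**Figure D4:**
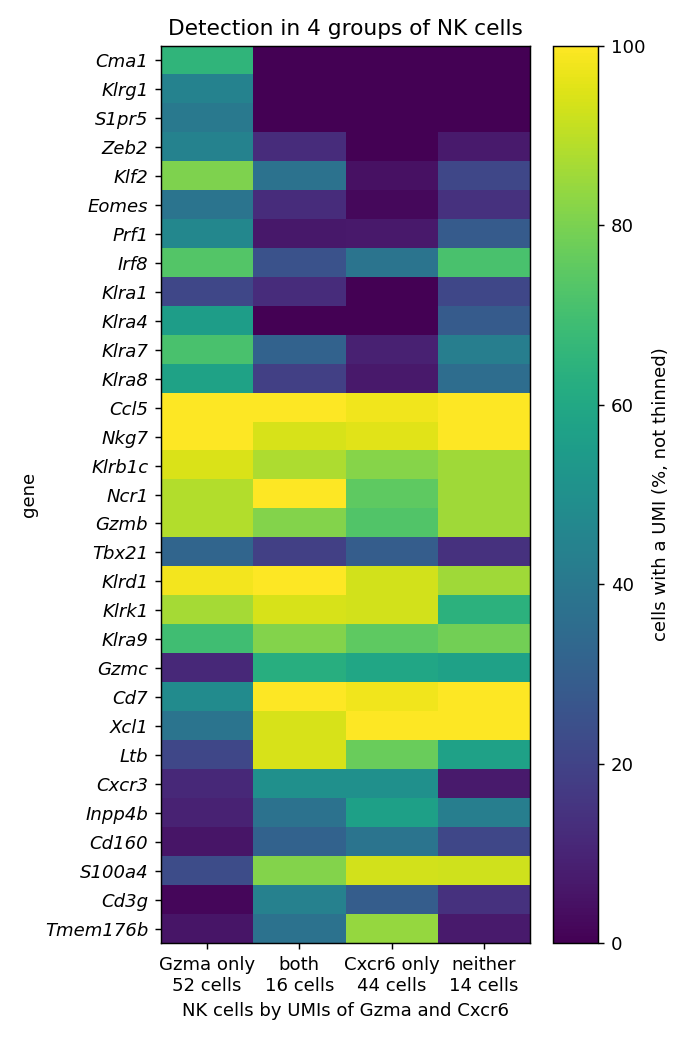
Colour gives the percentage of cells with at least 1 UMI (not thinned) of each gene in NK cells with Gzma UMIs only, with both, with Cxcr6 UMIs only and with neither. Cma1, Klrg1 and Klra4 were found in 65.4%, 44.2% and 55.8% of Gzma-only cells and in 0% of Cxcr6-only cells, which had Tmem176b in 84.1% and S100a4 in 93.2%.

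Ly49 receptors differed among themselves between the sets. Klra4 was at 1203 and 0 CPM in Gzma-only and Cxcr6-only cells, Klra8 at 975 and 25.9 and Klra7 at 897 and 38.8 CPM. Klra9 differed from these, at 1040.4 and 1680.3 CPM and so leaning to the Cxcr6-only side, as far as reads of these relatives can be told apart. Of the 4 Ly49 genes tested beside Klra8, 2 were at least 4-fold higher and 0 lower, with a median log2 ratio of 3.05. Counted over 11 Ly49 genes in cells thinned to 2000 UMIs, 41 of 41 Gzma-only cells had at least 1 and 24 of 41 at least 3 (58.5%, 42.1 to 73.7). Of the Cxcr6-only cells 31 of 41 had at least 1 and 1 of 41 at least 3 (2.44%, 0.0617 to 12.9). Median numbers were 3 and 1 Ly49 genes per cell. Over all 113 thinned NK cells, 100 had at least 1 Ly49 gene. Cross-assigned reads between family members would raise such counts in both sets, and their part was not tested.

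The 23 cells with Cd3g UMIs lay mostly outside the Gzma-only set. Cells with Cd3g UMIs were 13 of 44 Cxcr6-only cells, 7 of 16 with both genes, 2 of 14 with neither and 1 of 52 Gzma-only cells. Cd3g was at 503.6, 359 and 108 CPM in libraries 1, 2 and 3. Cd3e had 0 UMIs and Cd3d 2, while Cd28, a T cell costimulatory receptor, had 11 UMIs in 6 cells and Cd247 37 UMIs in 26.

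Between libraries 2 and 3, which hold 116 of the 129 NK cells, 23 of 1056 genes with at least 50 UMIs were at least 2-fold higher in library 2 (2.18%) and 16 at least 2-fold lower (1.52%). The median log2 ratio over all 1056 genes was -0.03. Without the 3 Klrd1-only cells 14 of 992 genes were higher and 15 lower. The 5 highest ratios were those of Cd74, H2-Aa, H2-Ab1, H2-Eb1 and Ifitm3. Cd74, the MHC class II invariant chain, had 537 UMIs in library 2 and 6 in library 3, and 497 of the 537 lay in the 3 Klrd1-only cells. Its ratio of 34.9 became 2.77 without them, and those of H2-Aa and Ifitm3 went from 12.1 and 11.7 to 2.08 and 2.91. Without those cells the highest ratios were those of Hspa1a, a heat shock protein gene (4.10), Cd3g (3.53), Ly6c2 (3.38), Cebpb (3.12) and Sh2d2a (2.67). Hspa1a was at 1259 CPM in library 2, where 45.0% of these cells had a UMI, and at 307 CPM in library 3 (21.2% of cells).

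**Figure D5:**
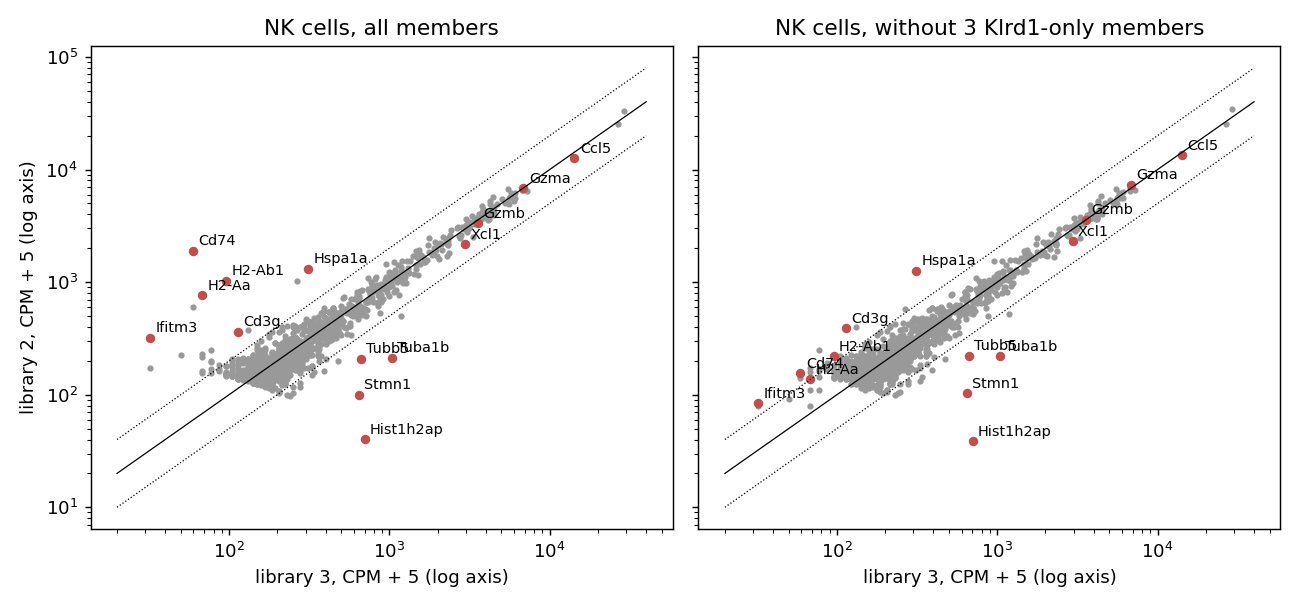
Each point is a gene with at least 50 UMIs in NK cells, placed by CPM plus 5 in library 3 (horizontal) and library 2 (vertical) on log axes, for all members (left) and without the 3 Klrd1-only members of library 2 (right). The solid line marks equality and the dotted lines 2-fold. Cd74, H2-Aa, H2-Ab1 and Ifitm3 move toward the lines on the right, and Hist1h2ap and Stmn1 stay below them.

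The 5 lowest ratios of library 2 to library 3 were those of Hist1h2ap, Stmn1, Tuba1b, Tubb5 and Klrb1a. Hist1h2ap, a replication-dependent histone, had 10 UMIs in library 2 and 77 in library 3, of which 76 lay in 2 cells. Of the 71 Stmn1 UMIs in library 3, 67 lay in 2 cells, and the 2 cells richest in each held 88.6% of the Tuba1b and 83.6% of the Tubb5 UMIs of library 3. Spread over more cells was Klrb1a, a lectin-like receptor at 91.5 and 235 CPM in libraries 2 and 3, with UMIs in 22.9% and 54.5% of their NK cells. None of the granule, Ly49, cytokine and transcription factor lists had a gene past 2-fold, with 0 among 10 tested granule genes, 5 Ly49 genes, 6 cytokines and 5 transcription factors. Their median log2 ratios were -0.18, 0.49, 0.10 and -0.03. Over all 1056 genes 2.18% were higher and 1.52% lower, so counts of 0 in lists this small do not set them apart.

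Few NK cells carried cell cycle transcripts. At least 3 of 20 cell cycle genes had UMIs in 8 of 129 NK cells, 1, 5 and 2 in libraries 1, 2 and 3, and of the 2 in library 3 one held 14 and the other 18 of the genes. After thinning to 2000 UMIs the counts were 0 of 11 (which allows up to 27.3%), 3 of 71 (4.23%, 0.880 to 11.9) and 2 of 31 (6.45%, 0.791 to 21.4). The other kept cells gave 0.339% (0.0924 to 0.865), 5.07% (3.31 to 7.40) and 23.1% (18.04 to 28.8) in libraries 1, 2 and 3. NK cells of library 2 thus lay within the interval of the other cells, and in library 3 the intervals overlapped while the NK share was lower. Over the list, 0 of 20 genes were at least 4-fold higher in NK cells than in other cells and 3 were lower, with a median log2 ratio of -0.03. These counts lay near the shares over all 9703 genes, 2.87% higher and 16.8% lower.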

How the data were processed

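The deposited matrix holds raw UMI counts of 27998 genes in 2149 cells, made with Cell Ranger 2.0.1 on mm10 per the submitters' processing notes. The annotation and the cell filter behind it are not given in the sources used here. Library ends of barcodes gave 3 libraries with 6410990, 4012306 and 2829775 UMIs in kept cells. Kept cells had at least 500 genes and at most 10% mitochondrial UMIs, which removed 5 cells. No cell was removed as a doublet. Scrublet (scanpy 1.11.5) marked 7 of 2144 kept cells, 1 of them an NK cell, too few to judge doublets by, and leaving them out is an alternative in the closing section.

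UMIs were summed over NK cells of a library and divided by the sum over all genes (CPM). A gene was called when its ratio was at least 4-fold (NK cells against others, and Gzma-only against Cxcr6-only) or 2-fold (library 2 against library 3) with at least 50 UMIs. List medians use 0.5 UMIs added to each sum. Shares of cells with a UMI were taken after thinning each cell to 2000 UMIs. Microglia for comparison had at least 0.3% of UMIs from 10 markers, and neutrophils at least 10% from the 4 neutrophil genes. Analyses used Python 3.11.15, scipy 1.17.1 and GENCODE M21 coordinates.

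Named genes were the 7 rule genes, the 25 others with the highest ratio and at least 100 UMIs, the 5 highest and 5 lowest ratios of library 2 to 3, and up to 4 genes with at least 20 UMIs of each list. Genes called between Gzma-only and Cxcr6-only cells, and that division, were chosen after values were seen. Members and the 17 gene lists and 10 marker lists were chosen with earlier results of these data known. Of 289 list genes, 6 have no row in the matrix (Klrh1, Trac, Trbc1, Trbc2, Tcrg-C1 and Ighm) and were not analysed here. Itgam sits on more than 1 row. Levels by library are of its main row, and the other row held 0 UMIs in NK cells of libraries 2 and 3. Sums of UMIs per cell add its rows. A few genes of these lists are not reported here.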

Additional observations from a re-analysis of the deposited data

How the results depend on the processing

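The share of NK cells in library 1 stayed inside its interval under all 9 alternatives tried, from 0.792% without Cd3-positive cells to 1.03%, and that of library 3 likewise, from 10.1% to 13.3%. The share of library 2 left its interval under 1, falling to 11.1% without NK cells that carry a Cd3d, Cd3e or Cd3g UMI. The threshold of 0.1% gave 16.6%. Counts of genes depended on the UMI minimum, which also changed the number tested. Against other cells, 444 genes were higher at 20 UMIs and 171 at 100 UMIs, and 996 were lower when libraries 2 and 3 were used alone. Between libraries 2 and 3, 157 genes were higher and 95 lower at 20 UMIs, 8 and 4 at 100 UMIs. There, 13 of 941 were higher at a threshold of 0.4% and 14 of 992 without the doubtful members, and 5 of 923 were lower without the 8 cells with cell cycle genes. Between Gzma-only and Cxcr6-only cells, 4 were higher in library 3 alone (of 232 tested) and 4 lower in library 2 alone (of 505). The rest of these counts were within 1.5 times the reported ones. Alternatives chosen after seeing the data were those that left out Klrd1-only, microglia-marker or cell cycle members and those within 1 library for the Gzma and Cxcr6 division. Single-gene levels moved beyond counting error in 12 of 21 genes with a mean of per-cell CPM and in 11 without library 2. No paired analysis was possible because each group is 1 library and no label gives replicate numbers. Depth limits transcription factors and perforin, with fewer than 100 UMIs each for most in all NK cells, and 13 cells limit library 1.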

Other observations

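Genes of antigen presentation through MHC class I were high in NK cells of each library. B2m, the light chain, was at 6023, 6407 and 7224 CPM in libraries 1, 2 and 3, and the heavy chains H2-D1 and H2-K1 at 4323, 4915 and 4719 and at 3043, 2478 and 2767 CPM. Of 9 tested genes 1 was at least 4-fold higher than in other kept cells, the nonclassical gene H2-Q7 at 797, 792 and 841 CPM, and 0 were lower, with a median log2 ratio of 0.94. These genes are polymorphic relatives, and reads of H2-D1, H2-K1 and H2-Q7 may be split between them. Of 14 interferon-stimulated genes 0 were at least 4-fold higher and 1 lower (Ifi27l2a), with a median of -0.53. Over all 9703 genes 2.87% were higher and 16.8% lower, so this list did not stand out by its counts. Ifi203 had 71 UMIs, Bst2 50 and Isg15 26 in all NK cells.

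Immediate early and heat shock genes, which tissue dissociation can induce, had a median log2 ratio of -0.71 to other kept cells, with 0 of 16 at least 4-fold higher and 4 lower. Over all 9703 genes 2.87% were higher and 16.8% lower, and nothing is read from these counts. Junb was at 1784, 1524 and 1202 CPM in libraries 1, 2 and 3, Btg2 at 1301, 1257 and 1175, Jun at 1364, 841 and 669 and Fos at 209.8, 356 and 199 CPM. Hspa1a was at 672, 1306 and 307 CPM, with 371 of its UMIs in 37 cells of library 2. Its part in other differences between libraries 2 and 3 was not tested.

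Among the remaining named genes, the adaptor Skap1 had UMIs in 79 of the 129 NK cells, Gimap4 in 116 and Ptprcap, a partner of the CD45 phosphatase, in 116. Ms4a4b, a membrane protein of lymphocytes, was at 1133, 1098 and 1212 CPM and Ctla2a, a cysteine protease inhibitor, at 209.8, 915 and 1039.7 CPM in libraries 1, 2 and 3.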
